A study of Drosophila melanogaster with 3 samples.

Results

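The mitochondrial ribosomal protein genes of Drosophila melanogaster were taken as the protein-coding genes whose symbol begins with mRpL, for the large subunit, or mRpS, for the small subunit. There were 73 of them among 13945 protein-coding genes, 47 mRpL and 26 mRpS genes. They were examined in chromatin immunoprecipitation with sequencing (ChIP-seq) of the protein CG10669, a method that recovers and sequences the DNA fragments to which a protein is bound. The animals were whole prepupae, the stage at the onset of metamorphosis, males and females together, from a transgenic line with a C-terminal green fluorescent protein (GFP) on CG10669, and 3 biological replicates formed the only group. The sources used here do not say what drives the transgene. The antibody label names CG10669 itself, so tagged and untagged protein cannot be told apart, and the age label of 24 days does not describe a prepupa. In whole animals, strong binding in few cells and weak binding in many cells cannot be told apart either.

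The mitochondrial ribosome translates the few proteins encoded by mitochondrial DNA, which are subunits of the respiratory chain and of ATP synthase. Its RNAs come from the mitochondrial genome, but its proteins are encoded in the nucleus, made by the cytoplasmic ribosome and imported. Some of these proteins have a bacterial relative, and others are found only in mitochondria. Their genes are spread over the chromosomes, so their promoters are separate targets for any one chromatin protein.

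CG10669 was found at the starts of 17 of the 73 genes, 9 of 47 for the large and 8 of 26 for the small subunit. A gene counted as bound when the summit of a reproducible peak lay within 500 bp of any of its annotated transcription start sites (TSSs). The members' share was 23.3% (95% Wilson interval 15.1 to 34.2), against 15.4% of all protein-coding genes, a value just inside that interval. All 17 bound genes stood head to head with another gene, as did 69.6% of the unbound members and 33.3% of all genes. Of their 18 peaks, 6 (33.3%) were among the 300 peaks of highest signal in the genome. This compares with 7.61% of the other peaks within 500 bp of a TSS. The 6 lay at mRpS10, mRpL41, mRpS23, mRpL23, mRpS2 and mRpL24. The remaining 56 genes had no reproducible summit within 500 bp. A weaker peak of the pooled data was there at 5 of them, and at 2109 of all 11800 unbound genes.

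Each replicate gave about the same share. In equally long replicate lists, each with its 7248 candidate peaks of highest signal, 19, 18 and 16 members were bound in replicates 1, 2 and 3, which is 26.0, 24.7 and 21.9% of them. Of all protein-coding genes, 15.2, 18 and 16.9% were bound in the same lists. The members' mean was 24.2 ± 2.09% (SD, n = 3), and all 3 values lay above those of all genes. In the pooled list of 30000 candidates, which reaches far below the reproducible threshold, 22 members (30.1%) had a summit within 500 bp, against 30.5% of all genes. Counting each peak for its nearest start alone, 9.59% of members and 12.2% of all genes were bound. In these counts the members' share stood above the background among strong peaks and at the background once weak candidates were included. It was below the background when each peak was counted for 1 gene. The interval of the reproducible share, 15.1 to 34.2%, holds the 15.4% of all genes. The 3 replicate lists score the same 73 genes, so they do not measure the spread over genes.

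Of the large-subunit genes 19.1% were bound (interval 10.4 to 32.5) and of the small-subunit genes 30.8% (16.5 to 49.99), intervals that overlap over most of their length. The order of the 2 shares depended on how peaks were assigned, with 10.6% of large- and 7.69% of small-subunit genes bound when a peak counted only for its nearest start. With a window of 250 bp, 19.2% of the small-subunit genes were bound. Members whose number falls within the bacterial series, up to 36 in the large and 21 in the small subunit, were bound in 9 of 42 cases (21.4%), and those with higher numbers in 8 of 31 (25.8%). This grouping was made after the values were seen. By chromosome arm, 7 of 17 members on 3L, 4 of 12 on 2L, 3 of 12 on 2R, 2 of 21 on 3R and 1 of 11 on X were bound. Of all genes, 16.5% on 3L, 15.1% on 2L, 12.9% on 2R, 15.3% on 3R and 17.9% on X were bound. The bound members thus included both subunits, both kinds of protein and each of the 5 arms that carry members.

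**Figure D1:**
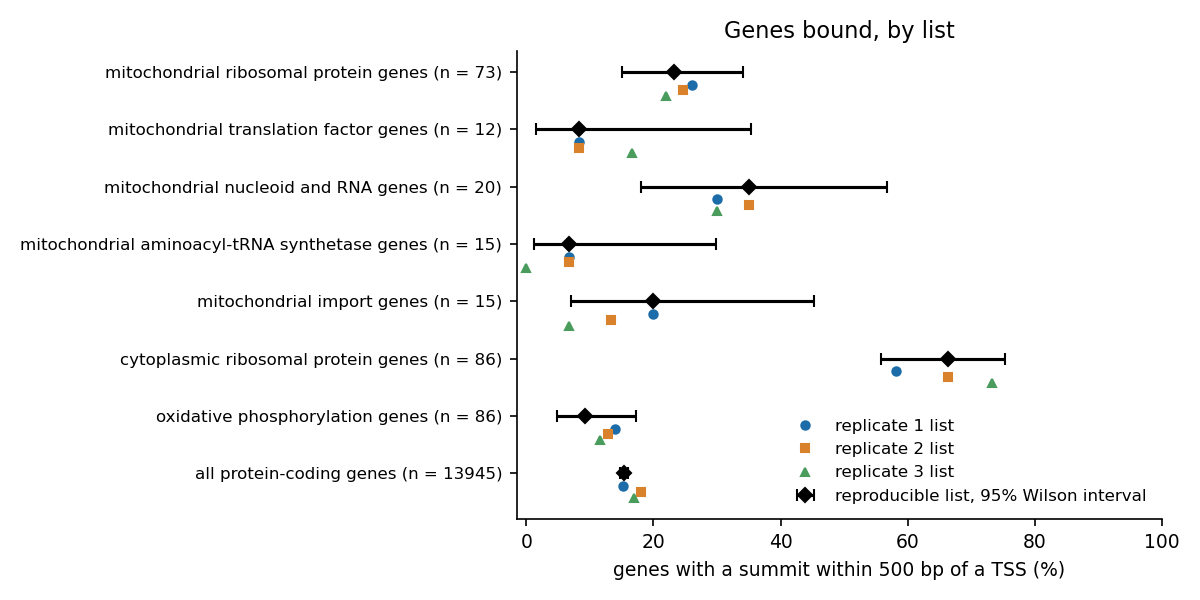
Percent of genes with a summit within 500 bp of a TSS, by gene list, with mitochondrial ribosomal protein genes at the top and all protein-coding genes at the bottom. Diamonds with bars are the reproducible list with 95% Wilson intervals over genes, and the coloured points are the 3 replicate lists. The mitochondrial ribosomal protein genes (23.3%) lie between all genes (15.4%) and the cytoplasmic ribosomal protein genes (66.3%).

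The genes of the other ribosome were bound far more often, with fewer of their peaks in the first ranks. Of the 86 cytoplasmic ribosomal protein genes, 57 (66.3%) were bound. In replicates 1, 2 and 3 the mitochondrial minus the cytoplasmic share was -32.1, -41.6 and -51.3 percentage points, a mean of -41.7 ± 9.61 (SD, n = 3). The direction was the same in all 3 replicates, and an exact two-sided sign-flip permutation test over them gave p = 0.25, the smallest value that 3 replicates allow. Of 18 peaks at the mitochondrial ribosomal protein genes 6 (33.3%) ranked in the first 300 of the pooled list, against 1 of 59 at the cytoplasmic ones, that of RpL37A at rank 41. The median pooled rank was 2446 at the mitochondrial and 3036 at the cytoplasmic ribosomal protein genes.

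The strongest peaks at the members were close together in rank. Signal is the peak caller's own value, with a scale of its own in each list, so each value was divided by the median of its own list of candidates and is called relative signal below. Ranks are by signal within the list, with 1 the highest. At mRpS10, which encodes a small-subunit protein with a bacterial relative, the relative signal was 54.9, 41.9 and 43.6 in replicates 1, 2 and 3, a mean of 46.8 ± 7.03 (SD, n = 3), and the pooled rank was 15. Its peak lies on chromosome 3R in the gap to Art3, an arginine methyltransferase gene. At mRpS23, which encodes a small-subunit protein without a bacterial relative, the values were 34.2, 49.2 and 57.6, a mean of 47.0 ± 11.9 (SD, n = 3), and the pooled rank was 18. Its partner is CenG1A, a gene for a GTPase-activating protein of Arf. The mRpS23 peak was the only 1 of the 18 whose relative signal was lowest in replicate 1.

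Further peaks among the first 300 lay at mRpS2 and mRpL24, which encode a small- and a large-subunit protein with bacterial relatives. At mRpS2 the relative signal was 30.6, 17.0 and 14.7 in replicates 1, 2 and 3, a mean of 20.8 ± 8.61 (SD, n = 3), and the pooled rank was 158. It shares its gap with Mon1, which encodes a regulator of endosome maturation. At mRpL24 the values were 26.6, 12.8 and 12.7, a mean of 17.4 ± 7.98 (SD, n = 3), at pooled rank 277, and the partner is betaggt-I, a subunit gene of geranylgeranyl transferase. In both cases replicate 1 stood apart from the other two, which were close to each other. At mRpL20, a large-subunit gene at pooled rank 1111, the values were 11.2, 6.95 and 7.60, a mean of 8.57 ± 2.27 (SD, n = 3), and the partner is Icmt, which encodes an isoprenylcysteine methyltransferase.

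The DNA under the summits of these 5 genes was rich in A and T, and it is shown as an example. The word counts described below were made in the full 200 bp windows of all 18 summits. Each run is the 200 bp centred on the summit, shortened where it met an annotated exon, read 5′ to 3′ on the strand of the member gene from Release 6 (dm6). For mRpS10 it is chr3R:15229435-15229634 on the plus strand, for mRpS23 chr2L:13835359-13835558, for mRpS2 chr2L:4850491-4850640, for mRpL24 chr2L:4945395-4945578 and for mRpL20 chr3L:13018020-13018219, the last 4 on the minus strand. Capitals mark the words CACTG or CAGTG, which are reverse complements of each other, and TAGGCTT or its reverse complement AAGCCTA.
mRpS10: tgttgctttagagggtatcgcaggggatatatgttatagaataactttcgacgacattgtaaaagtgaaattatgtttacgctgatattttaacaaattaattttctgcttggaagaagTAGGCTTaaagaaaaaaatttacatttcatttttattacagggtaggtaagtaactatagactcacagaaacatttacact
mRpS23: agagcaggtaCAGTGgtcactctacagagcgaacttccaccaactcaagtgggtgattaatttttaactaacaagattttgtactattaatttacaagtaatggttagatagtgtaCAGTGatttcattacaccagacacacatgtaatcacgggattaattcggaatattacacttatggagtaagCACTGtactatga
mRpS2: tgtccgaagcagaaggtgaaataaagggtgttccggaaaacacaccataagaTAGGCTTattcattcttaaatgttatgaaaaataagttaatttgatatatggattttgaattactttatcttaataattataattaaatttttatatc
mRpL24: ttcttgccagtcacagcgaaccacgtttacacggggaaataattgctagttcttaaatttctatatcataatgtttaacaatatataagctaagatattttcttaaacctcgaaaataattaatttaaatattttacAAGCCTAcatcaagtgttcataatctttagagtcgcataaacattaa
mRpL20: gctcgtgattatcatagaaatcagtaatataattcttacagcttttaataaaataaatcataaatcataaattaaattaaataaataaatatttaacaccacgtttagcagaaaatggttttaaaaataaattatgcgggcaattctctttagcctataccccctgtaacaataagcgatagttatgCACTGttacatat

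Weaker peaks lay on DNA of like composition, and 3 of them are shown for contrast. They are those of mRpS7 at chr2L:10386410-10386609 on the plus strand, and of mRpL21 at chr3L:19255087-19255286 and mRpL39 at chr3L:14999667-14999841 on the minus strand. Capitals mark the same words and TATCGATA, the DNA replication-related element (DRE), a core promoter word of Drosophila housekeeping genes.
mRpS7: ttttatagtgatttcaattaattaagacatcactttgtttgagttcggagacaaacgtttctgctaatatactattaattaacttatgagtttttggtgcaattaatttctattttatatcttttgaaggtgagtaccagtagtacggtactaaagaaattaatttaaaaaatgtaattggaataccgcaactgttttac
mRpL21: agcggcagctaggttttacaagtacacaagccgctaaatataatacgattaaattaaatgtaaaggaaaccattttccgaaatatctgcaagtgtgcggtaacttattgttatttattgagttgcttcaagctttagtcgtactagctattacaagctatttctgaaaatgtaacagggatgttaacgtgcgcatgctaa
mRpL39: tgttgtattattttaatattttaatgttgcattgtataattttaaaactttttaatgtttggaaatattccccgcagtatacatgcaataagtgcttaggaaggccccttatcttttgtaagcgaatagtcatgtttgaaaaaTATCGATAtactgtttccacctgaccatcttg

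Among the printed runs the GC content was 30% at mRpS10, 36% at mRpS23, 25.3% at mRpS2, 28.3% at mRpL24 and 26% at mRpL20, and 27% at mRpS7, 35.5% at mRpL21 and 30.3% at mRpL39. The mRpS23 run alone holds the CACTG word on either strand 3 times, and the mRpL39 run holds the only DRE under the 18 summits. The TAGGCTT word stands in those of mRpS10, mRpS2 and mRpL24. The runs of mRpS7 and mRpL21 hold none of these words.

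The signal of the remaining peaks spanned a wide range. At mRpL41, a large-subunit gene without a bacterial relative, the relative signal was 73.5, 34.9 and 29.0 in replicates 1, 2 and 3, a mean of 45.8 ± 24.2 (SD, n = 3), at pooled rank 16. Its peak at chr2R:15217535-15217986 had the largest SD of the 18. At mRpL23, whose bacterial relative sits at the exit of the ribosomal tunnel, the values were 28.7, 21.03 and 23.3, a mean of 24.3 ± 3.93 (SD, n = 3), at pooled rank 97. The mRpL23 summit is the only 1 of the 18 downstream of the member's TSS, 74 bp into its 5′ untranslated region (UTR), on a pair with a gap of 50 bp to CG9004. At mRpL2, whose bacterial relative lies near the peptidyl transferase centre, the values were 11.5, 7.46 and 6.21, a mean of 8.39 ± 2.77 (SD, n = 3), at pooled rank 1173. That summit is in an intron of FoxK, a forkhead factor gene, which has several TSSs.

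**Figure D2:**
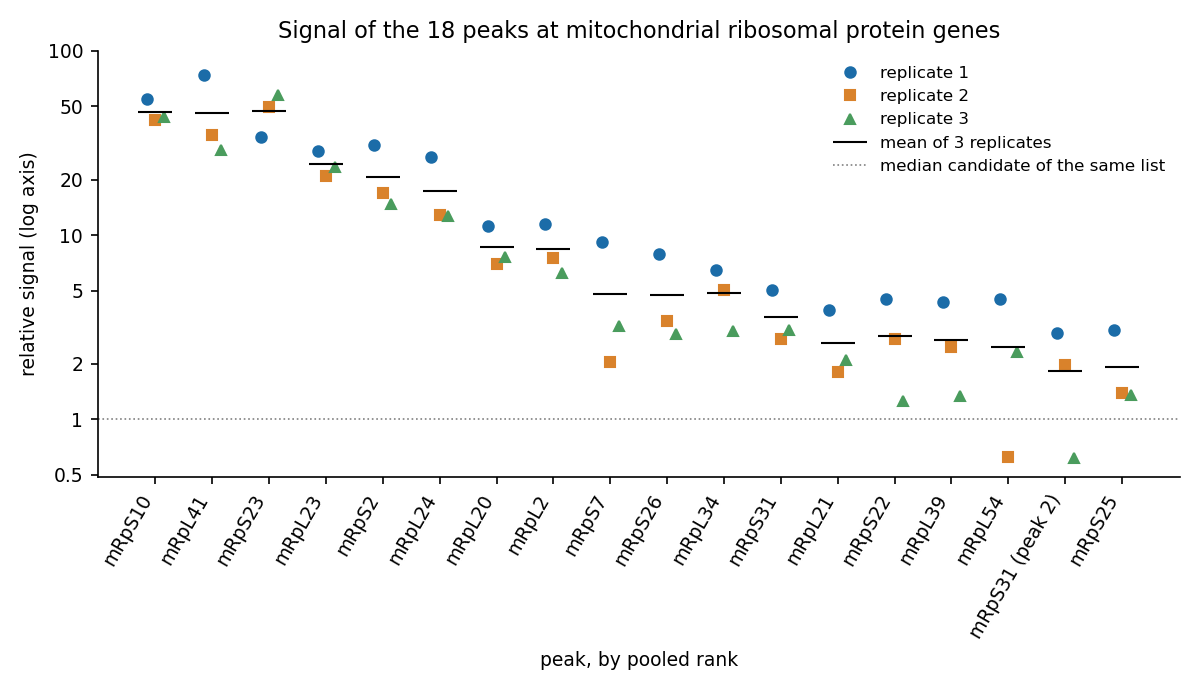
Relative signal (log axis) of the 18 peaks at mitochondrial ribosomal protein genes in replicates 1, 2 and 3, in order of pooled rank, with the mean of the 3 as a bar. The dotted line at 1 is the median candidate of the same list. The first 6 peaks have means of 17.4 to 47.0, and values under 1 occur in replicate 2 at mRpL54 and in replicate 3 at the second peak of mRpS31.

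Below these, relative signals were in single digits. At mRpS7, whose partner is the cell cycle kinase gene Cdk1, the relative signal was 9.19, 2.04 and 3.19 in replicates 1, 2 and 3, a mean of 4.81 ± 3.84 (SD, n = 3), at pooled rank 2390. At mRpS26, partner CG13698, it was 7.93, 3.41 and 2.90, a mean of 4.75 ± 2.77 (SD, n = 3), and at mRpL34, partner Dg, the dystroglycan gene, 6.44, 5.01 and 3.03, a mean of 4.83 ± 1.71 (SD, n = 3). The means of these 3 peaks differed by far less than their SDs. mRpS31 has a peak on each side of the start of its partner hzg, with means of 3.61 ± 1.27 and 1.84 ± 1.16 (SD, n = 3), at pooled ranks 3461 and 6780. The means were 2.61 ± 1.15 at mRpL21, whose partner rept encodes the ATPase Reptin, 2.83 ± 1.63 at mRpS22, partner CG5003, and 2.70 ± 1.51 at mRpL39, partner Prosbeta2, a proteasome subunit gene. They were 2.48 ± 1.94 at mRpL54, partner CG15653, and 1.94 ± 0.977 at mRpS25, partner nmdyn-D6, a nucleoside diphosphate kinase family gene (SD, n = 3 each). Large-subunit genes held pooled ranks 16, 97, 277, 1111 and 1173 among the first 8 peaks, and small-subunit genes 15, 18 and 158, so neither subunit's peaks stood first as a group.

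As a set, the 18 peaks were not uniformly strong. Their median relative signal was 6.07, against 5.00 for the 1945 other promoter peaks, and their median pooled rank was 2446, against 3099. The median rank changed with the peaks kept. Among peaks recovered in both other lists it was 694, 1142 and 1173 when replicate 1, 2 or 3 was left out, against 2232, 2239 and 2241 at other promoter peaks. With each peak counted only for its nearest start it turned to 4648, against 3086. At the upper end, 33.3% were among the first 300 ranks, against 7.61% of the other promoter peaks. The other 361 peaks that had both genes of a head-to-head pair within 500 bp were 9.42% in the first 300 and had a median rank of 2407. The order of the 300 strongest was known when the genes were chosen, and these shares are a description without a test.

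All 18 peaks had a candidate within 200 bp in every replicate. So had 1712 of the 1945 other promoter peaks and 296 of the 361 other peaks at both genes of a pair. Of the 18, 12 were in all 3 replicate lists, against 65.9% of the other promoter peaks. A further 5 were in 2 lists, namely those of mRpL21, mRpS22, mRpL39, mRpL54 and the second peak of mRpS31, and that of mRpS25 was in the list of replicate 1 only. All 18 were in the list of replicate 1, 15 in that of replicate 2 and 14 in that of replicate 3. Of the other promoter peaks, 83.8, 83.9 and 85.0% were in those lists.

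The replicates did not rank these peaks alike. Replicate 1 gave the best of the 3 ranks for 16 of the 18 peaks and replicate 2 for that of mRpL34. At mRpS23 replicates 2 and 3 tied at rank 7, against 57 in replicate 1. Their median rank was 1420, 2774 and 4647 in replicates 1, 2 and 3. Other promoter peaks with candidates in all lists had their best rank in replicate 1 in 50.9% of cases, with median ranks of 2578, 3061 and 3208. The other peaks at both genes of a pair had it there in 75.3% of cases, with median ranks of 1602, 2530 and 3024. Some weak peaks moved far, for example the mRpL54 peak, which ranked 3213, 26536 and 6455 in replicates 1, 2 and 3, and the mRpS22 peak, which ranked 3199, 4580 and 12039. Sequencing depth is unknown, and its part in these differences was not tested.

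All bound members were arranged head to head with another gene at most 1000 bp away. A partner was a protein-coding gene on the other strand, transcribed away from the member, with its TSS at most 1000 bp off and without overlap. The share with a partner was 17 of 17 (100%, interval 81.6 to 100), against 39 of 56 unbound members (69.6%, 56.7 to 80.1). With a limit of 500 bp between the starts, 15 of 17 bound members (88.2%) had a partner, mRpL41 and mRpS25 being left out, against 36 of 56 unbound members (64.3%). Among all genes at the limit of 1000 bp, 45.8% of the bound and 31.1% of the unbound ones had a partner. The members as a class were often arranged like this, 56 of 73 (76.7%), against 33.3% of all genes and 60.5% of cytoplasmic ribosomal protein genes. Of the members with a partner 17 of 56 (30.4%) were bound, against 21.1% of all genes with a partner. Of the members without one, 0 of 17 were bound. A count of 0 among 17 allows up to 17.6%, and the 12.5% of all genes without a partner lies within that limit.

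Most summits lay between the starts of the pair. In 16 of 18 cases the summit was between the TSSs of the pair, the exceptions being mRpL23 and the first peak of mRpS31. At mRpL2 this holds for the FoxK start 436 bp away. The closest FoxK start is 64 bp from the member, and the summit at -307 bp lies outside that narrower gap. The limits of 500 bp to the member and 1000 bp to the partner favour a position between the starts for upstream summits. In 15 of 18 cases the summit was outside every protein-coding gene and every annotated exon, transposable elements not counted. It was upstream of the member in 17 cases, at a median distance of 176 bp, with a range of 39 bp at mRpL54 to 485 bp at mRpS31. Other promoter peaks were upstream in 77.5% of cases, at a median distance of 169 bp. In 7 cases the member's TSS was the nearest protein-coding start, and in 11 cases another gene's was. At mRpS10 the summit was 130 bp from the member and 127 bp from Art3, and at mRpL34 it was 200 bp from the member and 184 bp from Dg. At mRpS23, by contrast, it was 387 bp from the member and 105 bp from CenG1A. Of the 17 partners 16 were counted as bound too, the exception being CG8079, 624 bp from the mRpL41 summit. In 15 of the 17 pairs the starts were at most 500 bp apart, so a summit between them is within 500 bp of both. Which gene of a pair a peak belongs to cannot be told apart with these data.

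**Figure D3:**
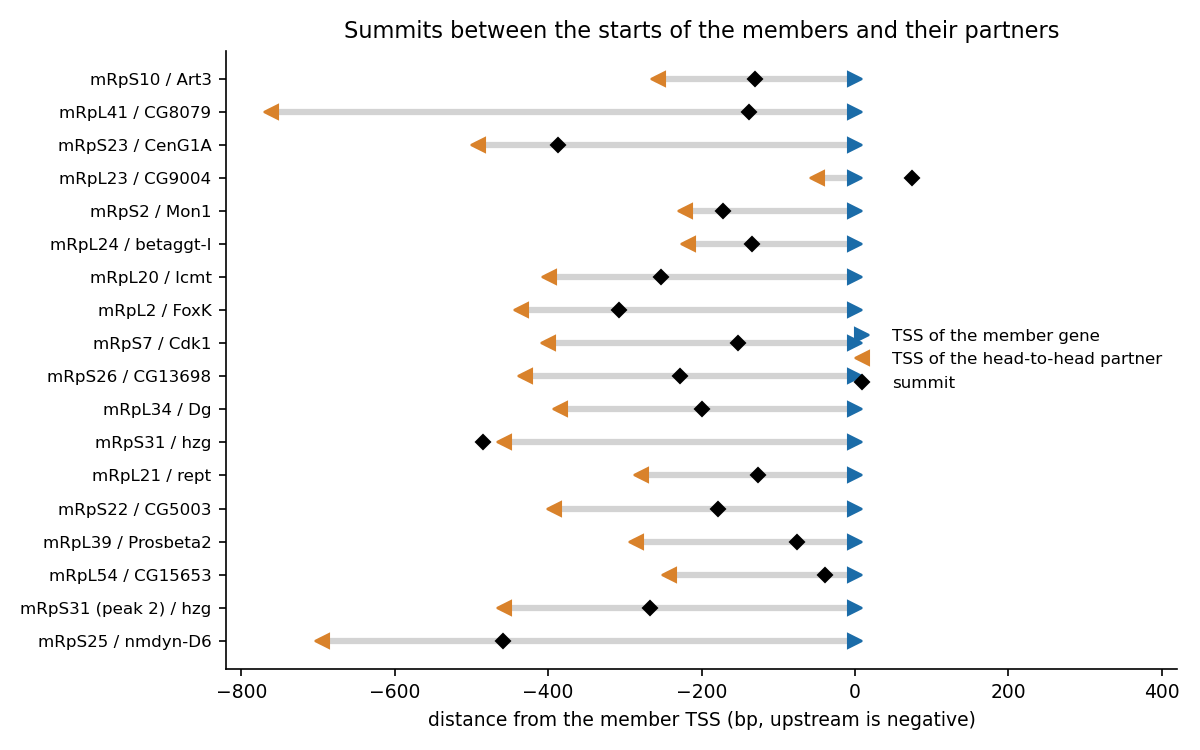
Position of the summit (diamond) and of the partner's TSS (left-pointing triangle) in bp from the member's TSS (right-pointing triangle) for the 18 peaks, in order of pooled rank. The grey bar is the gap between the starts. In 16 of 18 rows the diamond is on the grey bar, and at mRpL23 and the first peak of mRpS31 it is outside it.

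Bound members had wider gaps than unbound ones at the median, with overlap. Over the closest pair of annotated TSSs the gap had a median of 384 bp at bound and 281 bp at unbound members, against 306 and 300 bp at bound and unbound genes of the whole genome. Of members with a gap of at most 100 bp, 2 of 17 (11.8%) were bound, mRpL23 and mRpL2, and FoxK has a more distant start at mRpL2, with 436 bp to the member. Of those above 200 and up to 300 bp, 6 of 11 (54.5%, interval 28.0 to 78.7) were bound, against 25.9% of all genes with such a gap. Above 300 and up to 500 bp, 7 of 20 (35%, 18.1 to 56.7) were bound, against 25.8%. In the other classes, 0 of 3 members above 100 and up to 200 bp were bound, and above 500 bp it was 2 of 5. The intervals of members and all genes overlapped in each of the 5 classes.

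**Figure D4:**
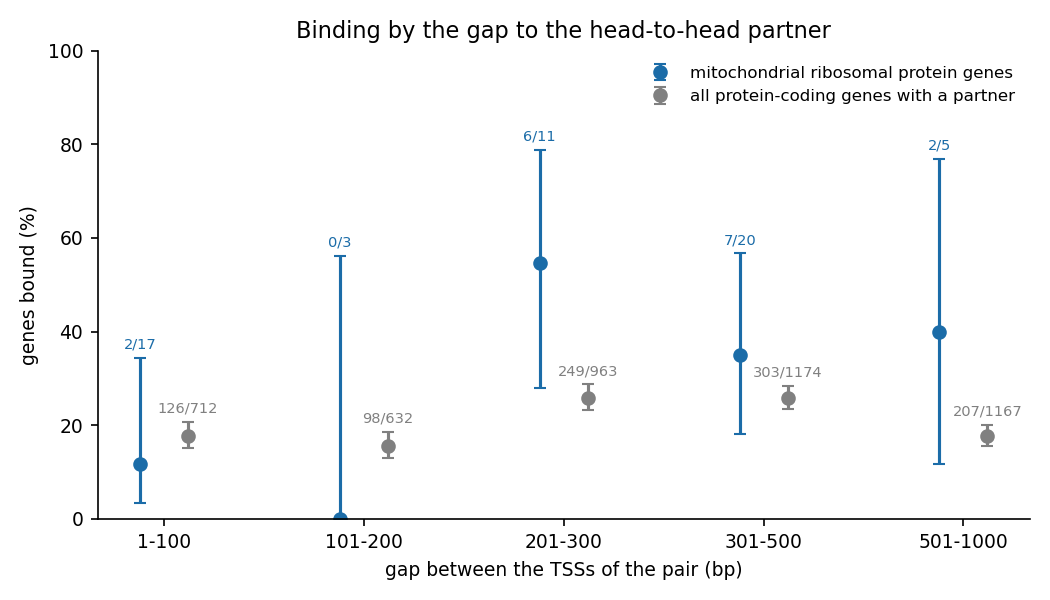
Percent of genes bound by the gap between the TSSs of the head-to-head pair, for mitochondrial ribosomal protein genes (blue, left) and all protein-coding genes with a partner (grey, right), with 95% Wilson intervals over genes and the counts above. The members run from 0 of 3 in the second class to 6 of 11 in the third.

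The DNA at the summits was AT-rich within GC-richer flanks. GC content of the 200 bp window at the summit averaged 30.7 ± 3.27% (SD over 18 peaks, range 26 to 36), against 36.4 ± 8.40% at the 1945 other promoter peaks. Windows 500 bp to either side averaged 47.9% at the members, so that the summit was lower by 17.2 percentage points, and it was lower than the flanks at each of the 18. At the other promoter peaks the difference was -7.33 points, with 1440 of 1945 lower. The other peaks at both genes of a pair were much like the members, with 33.1 ± 6.73% at the summit and a difference of -16.5 points.

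A similarly low GC content was found at unbound pairs when the gap was matched. In the 200 bp at the middle of the closest gap it had a median of 28.5% at the 17 bound members and 34.0% at the 39 unbound members with a partner. Among those with a gap above 200 and up to 500 bp, it was 27.5% at 13 bound members and 26.8% at 18 unbound ones. For all genes with such a gap it was 28.8% when bound and 29.5% when unbound. At a matched gap, then, the bound and unbound members did not differ by more than 1 point in this median.

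**Figure D5:**
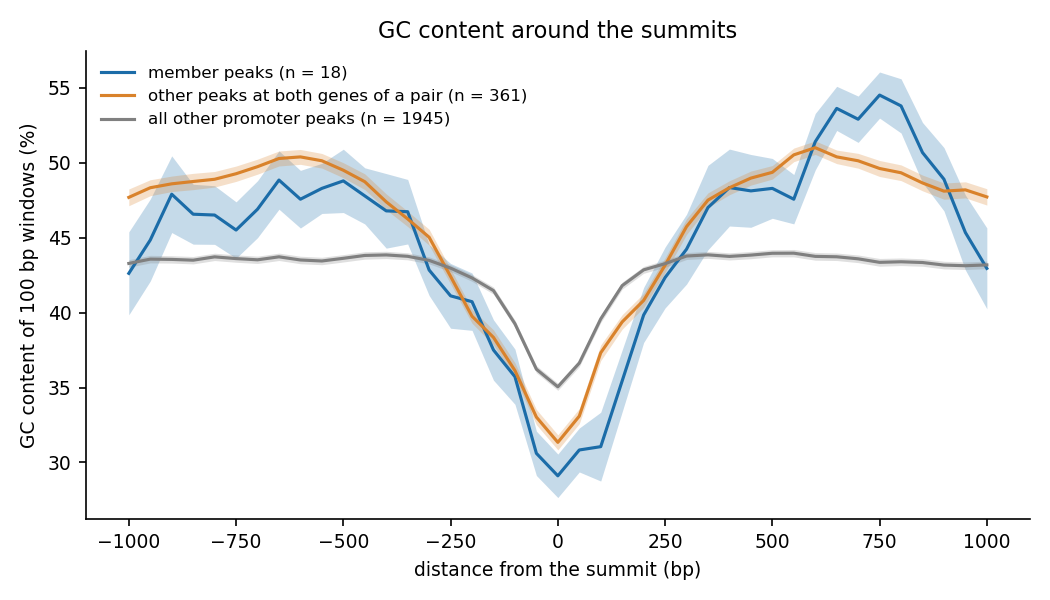
Mean GC content of 100 bp windows against distance from the summit in bp, in genome orientation, for the 18 member peaks (blue), the 361 other peaks at both genes of a pair (orange) and all 1945 other promoter peaks (grey), with bands of 1 standard error over peaks. The minima at the summit are 29.1, 31.3 and 35.0%.

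Most of the known promoter words searched were found at few of the 18 summits. Words were searched on both strands in the 200 bp window. The DRE, TATCGATA, was found at 1 of 18 member summits (mRpL39), against 2.78% of the other promoter peaks, and CGATA, the word bound by the insulator protein BEAF-32, which the DRE contains, at 7 of 18 (38.9%), against 27.4%. The M1BP word GGTCACAC was at 1 member summit (the first peak of mRpS31), against 2.11%, and the E-box CACGTG at 1 (mRpL23), against 2.16%. The GAGA word GAGAG was at 2 of 18, against 26.8%, and the TATA word TATAAA at 6 of 18, against 34.7%. The other peaks at both genes of a pair held CGATA in 36.3%, GAGAG in 14.1% and TATAAA in 46.0% of cases, closer to the members' 38.9 and 11.1% for the first 2 words than all other promoter peaks were. In the members' own flanks CGATA was found in 13 of 36 windows. With 18 windows, 1 window is a share of 5.56%, so the rarer words cannot be compared.

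Among words enriched at CG10669 summits elsewhere in the genome, runs of A and T were those most often seen at member summits. The 5 7-mers with the largest excess over flanks at reproducible peaks outside the members were such runs. Of these, AAAAATA was at 10 of 18 member summits, against 28.9% of the other promoter peaks, and TTAAAAA likewise at 10 of 18, against 25.0%. TTTAAAA was at 9, AAAAAAT at 8 and AAAATAT at 7 of 18, against 23.7, 27.5 and 27.2%. The other peaks at both genes of a pair held the 5 words, in the order given, in 33.2, 32.7, 29.1, 29.4 and 34.9% of cases. Ranked by the ratio to the flanks instead, CAGTGTA came among the first 3, found at 8.08% of the reproducible peaks outside the members and at 1.69% of flanks. CACTGAG was at 7.01% of them and 1.61% of flanks, and ACACTGA at 7.11% and 2.21%. The 3 words were at 0 of 18 member summits, and at 4.78, 2.83 and 4.63% of the other promoter peaks. Each of these shares is below the 5.56% that 1 of 18 windows makes, so the counts of 0 cannot be compared. Their shared core CACTG was at 4 of 18 member summits, those of mRpS23, mRpS2 (outside the shortened run above), mRpL20 and mRpL54. It was at 40.8% of the other promoter peaks and 41.6% of those at both genes of a pair. In the members' own flanks CACTG was found in 10 of 36 windows, and elsewhere in 30.6% of flanks. The ranking by ratio and the core were chosen after several word lengths had been looked at. A word in a window is a description and says nothing of what CG10669 binds.

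Of the 56 members without a reproducible peak, 51 had no pooled candidate within 500 bp and 30 had no candidate in any of the 4 candidate lists. The 30 stands without a share over all genes, so it cannot be compared. Of all 11800 unbound genes, 2109 had a pooled candidate within 500 bp, and of the 56 unbound members 5 had. The 5 with a pooled candidate were mRpS5 at rank 8121, mRpS16 at 9131, mRpS18B at 12049, mRpL50 at 14207 and mRpL19 at 29027, below the last reproducible rank of 7248. Their relative signals were 1.97, 1.74, 1.29, 1.07 and 0.461 in the pooled list, and the lowest of the bound members there was mRpS25 with 2.36. This order is fixed, since the reproducible peaks are the pooled candidates of highest signal. By the nearest reproducible summit, mRpS25 with 459 bp and mRpS23 with 387 bp were just inside the 500 bp limit, and mRpL33 with 660 bp and mRpL27 with 993 bp were just outside it. The genes tko and bonsai, which encode mitochondrial ribosomal proteins under other symbols, were outside the rule and had no reproducible summit within 500 bp, the nearest being 8998 and 20780 bp away.

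Other lists of nuclear genes for mitochondrial gene expression differed in their share. Of 20 nucleoid and RNA genes 7 (35%) were bound, among them PNPase, for the mitochondrial polynucleotide phosphorylase, at pooled rank 7, Lon, for a matrix protease, at rank 92, and SLIRP2 and SLIRP1, for RNA-binding proteins, at ranks 101 and 591. Of 12 translation factor genes 1 was bound, mIF2, at rank 4425, and of 15 mitochondrial aminoacyl-tRNA synthetase genes 1, ArgRS-m, at rank 6151. Of 15 import genes 3 were bound, Tom7 at rank 1441, Tim10 at 4306 and Tim9a at 6228. Of 86 oxidative phosphorylation genes, whose products work in the chain that the mitochondrial ribosome serves, 8 (9.30%) were bound. The replicate means were 24.2 ± 2.09% for the mitochondrial ribosomal protein genes, 31.7 ± 2.89% for nucleoid and RNA genes and 12.8 ± 1.16% for oxidative phosphorylation genes (SD, n = 3), and in each replicate list the mitochondrial ribosomal protein genes lay between the other two. Over genes, the members' interval (15.1 to 34.2%) overlaps those of nucleoid and RNA genes (18.1 to 56.7%) and oxidative phosphorylation genes (4.79 to 17.3%). The order of these lists is thus not resolved over genes. The intervals of the synthetase share (1.19 to 29.8%) and the translation factor share (1.49 to 35.4%) also overlap that of the members. Of all protein-coding genes, 15.4% were bound.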

How the data were processed

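Peak lists of CG10669 ChIP-seq in 3 replicates were used as the authors deposited them, in dm6 coordinates. Per the file headers, the candidates of each replicate and of the pooled alignments were made with 1 shared control file, and the reproducible list came from the irreproducible discovery rate (IDR) step. Chromatin was sonicated to 200 to 800 bp, per the labels. The sample descriptions mention an input control, while the assay and antibody labels describe an immunoprecipitation, and the lists were read as such. Not given in the sources used here were the aligner, the peak caller, the IDR threshold and the read totals. Depth is thus unknown, and intervals cover counting error over genes or peaks only. Signal was used as deposited, on the caller's scale. The deposited −log10 q-value was not used for ranking. The 7248 reproducible peaks were the pooled candidates of highest signal, checked on the files.

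Genes came from Ensembl release 115 (protein-coding, 6 chromosomes) and sequence from the RefSeq Release 6 genome. Distances, shares, ranks, GC content and word counts were computed with Python 3.11.15, numpy 2.4.6, pandas 2.3.3 and scipy 1.17.1. The steps for distance to a TSS, matching of summits between lists and word counts were tested on simulated data. The search for head-to-head partners was not part of that test. Summits within 200 bp were taken as the same peak, and head-to-head TSSs were at most 1000 bp apart. Where replicates tied for the best rank of a peak (1 member peak and 4 other promoter peaks), the lower replicate number was taken in shares. No test across genes was made, since 1 group allows no contrast of samples. Members, lists and words were chosen with earlier results of these data known. Every bound member and its partner are named, besides the 5 unbound members with the highest candidate, those nearest the 500 bp limit, and up to 4 bound genes of each other list. Alternatives changed the TSS window, the TSS set, the peak set, the sequence windows and the replicates.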

Additional observations from a re-analysis of the deposited data

How the results depend on the processing

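Shares and counts were taken as moved when they changed by over 1.5 times, and the median rank, the offset and the GC difference when they changed by more than the replicate SD. By these rules 67 alternative values stayed and 18 moved, and the sign of every signed value was kept. Counting a peak only for its nearest start left 9.59% of members bound, against 12.2% of all genes, 10.6% of mRpL and 7.69% of mRpS genes, with a median pooled rank of 4648, so that the members' share lay below that of all genes, and the order of mRpL and mRpS genes turned round. With a TSS window of 250 bp, 19.2% of mRpS genes were bound, and the median offset was -136 bp. Among genes with a pooled candidate, 77.3% of members were bound, against 50.4% of all genes. The median pooled rank was 694 with the stronger part of the peaks and 694 with peaks recovered in all 3 replicate lists. Without 1 replicate each, that is with peaks recovered in both remaining lists, the median pooled rank was 694 to 1173. The median offset was then -186 to -162 bp and the GC difference -17.4 to -16.6 points. In these settings 16.4 to 19.2% of members were bound, against 11.2 to 12.0% of all genes. The 694 came without replicate 1, and 1142 without replicate 2 and 1173 without replicate 3. The GC difference was -19.4 points with windows of 100 bp, -16.6 with 300 bp and -13.9 with flanks 1000 bp away. The cause of these shifts was not tested, apart from the stricter peak sets, which hold fewer weak peaks by construction. The comparisons with other peaks at both genes of a pair and with the middle of the gap, the gap between canonical starts, the words by ratio and other windows for the cytoplasmic comparison were chosen after seeing the data. With unknown depth and 18 peaks, small differences in shares could not be resolved. No paired analysis was possible because there is only 1 group of samples, and the difference from the cytoplasmic genes was taken within each replicate.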

Other observations

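mRpS24, a small-subunit gene, was the only unbound member with a summit in all 3 replicate lists. Its relative signal was 6.58, 2.44 and 3.12 in replicates 1, 2 and 3, a mean of 4.05 ± 2.22 (SD, n = 3), and its ranks were 2013, 5244 and 4628. The summits lay 239, 239 and 316 bp upstream of the gene, in the 421 bp gap to Apc2, an adenomatous polyposis coli family gene. The pooled list nevertheless has no candidate within 500 bp of the mRpS24 start, and the nearest reproducible summit is 1868 bp away. This was rare in the genome, since 19 of the 1486 genes bound in all 3 replicate lists (1.28%) had no pooled candidate, and 31 were not bound in the reproducible list.

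The other unbound members in a replicate list were mRpS5, in 2 lists, and mRpL11, mRpL18, mRpL3 and mRpL32, in 1 list each. At mRpL32 the summit was in replicate 2 only, at rank 4753 with a relative signal of 2.65, and no candidate of another list was within 500 bp.

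The 7-letter word TAGGCTT was noticed by eye in the printed sequences of mRpS10, mRpS2 and mRpL24, which were 3 of the 6 strongest peaks. It was at 3 of 18 member summits on either strand, against 1.13% of the other promoter peaks, 1.66% of the other peaks at both genes of a pair and 1.13% of flanks. It was found after the sequences were seen and has no test.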
